A study of Bos taurus with 44 samples.

Results

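Translation initiation and elongation factors bring messenger RNA, the initiator transfer RNA and the ribosome together and then move the ribosome along the message. All genes on the array whose single annotated symbol starts with EIF or EEF and a digit were taken as members, except EIF2AK2, an interferon-induced kinase. This gave 47 of 8073 named genes, each read from 1 cDNA probe, and 7 of them have a second probe that was set beside the first. The rule uses symbols and no measured value.

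The study compared uterine tissue of cattle after different ways of starting a pregnancy. Transfer of embryos fertilised in vitro (IVF-ET) was set against artificial insemination (AI) in caruncular and in intercaruncular tissue, with 5 IVF-ET and 5 AI animals on 10 two-colour arrays per area. The same 5 IVF-ET animals and 3 of the AI animals were in both areas. Pregnancies from cloned embryos (SCNT, for somatic cell nuclear transfer) were set against AI on 4 arrays of caruncular RNA pools, 2 pools per group. In intercaruncular tissue, 10 arrays set 5 SCNT animals, and 10 more set 4 AI animals, beside 5 CJ animals; of CJ the labels give little more than the word cycle. Placental attachment in cattle takes place at the caruncles, raised parts of the lining, and the intercaruncular tissue is the lining between these. The labels give no breed, age, day of sampling or number of animals per pool, and they name the AI animals set against IVF-ET differently from those set against CJ.

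Initiation starts when eIF2 carries the initiator transfer RNA to the small ribosomal subunit together with eIF1, eIF1A, eIF3 and eIF5. The eIF4 group, in which EIF4E binds the cap, EIF4G1 is the scaffold and EIF4A1 is the helicase, recruits the messenger RNA. During elongation eEF1A delivers each transfer RNA, the eEF1B subunits reload eEF1A with GTP, and eEF2 moves the ribosome forward. In ruminants the early conceptus signals to the uterine lining with interferon tau, and genes of the interferon response then rise there.

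All values are log2 ratios between the 2 samples on an array, so that they give differences and no absolute levels. Cy5 over Cy3 was taken as the likely direction, because the labels do not state it: the interferon-induced genes ISG15, MX1, MX2, RSAD2 and IFI6 are then higher, and the oxytocin receptor gene OXTR lower, in SCNT and AI than in CJ animals, as is known of early ruminant pregnancy. Under the other reading every sign below would turn. All 47 members had a value on all 44 arrays. The 2 spots of a member's probe correlated across the arrays with r of 0.371 (EIF2B4) to 0.970 (EEF2), with a median of 0.857 against 0.752 over all probes, so EIF2B4 is the least precisely read member.

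One AI animal of the arrays with CJ stood apart. The median of the 5 interferon-induced genes was -0.27 in AI animal 3, against 4.16 to 5.10 in AI animals 1, 2 and 4 and 3.95 to 4.53 in the 5 SCNT animals. Its stromal fibroblast markers had a median of 0.56, against -1.90 to -1.57 in the other AI animals. Because 4 of the 10 AI arrays carry this animal, members whose call changes without it are also given without it. Of the cell type markers, 7 of 8 measured stromal fibroblast genes (COL1A1, COL1A2 and COL3A1 among them) fell in SCNT against CJ and 4 of 8 in AI against CJ. Of the smooth muscle markers, 5 of 6 fell in SCNT and 2 of 6 in AI. Their median was -0.15 in AI animal 3 and -1.77 to -1.31 in the other AI animals. The medians of these other AI animals lay within the range of the SCNT animals. All marker counts for AI include animal 3 and are not given without it, so a lower count in AI may rest on that animal. Epithelial markers rose in 4 of 9 and fell in 1 of 9 in SCNT (KRT19, at -1.01) and rose in 2 of 9 in AI. Of 5 measured endothelial markers, 2 rose and 1 fell in SCNT, and 1 rose and 1 fell in AI. Trophoblast markers rose in 4 of 7 in SCNT and 0 of 7 in AI, and 0 of 8 leukocyte markers passed in either. Over all named genes, 26.7% passed in SCNT and 18.9% in AI. Trophoblast markers were highest in SCNT animals 4 and 1, with medians of 1.48 and 0.65, against 0.01 to 0.15 in the other SCNT animals and -0.04 to 0.15 in the AI animals. The part of cell composition in the results below was not tested, and in RNA of whole tissue fewer cells of a type and less RNA per cell cannot be told apart.

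In intercaruncular tissue, 11 of the 47 members fell and 1 rose in SCNT against CJ animals, and 8 fell and 0 rose in AI against CJ animals (limma, Benjamini-Hochberg adjusted p below 0.05 over all probes). The members past the threshold differed by 1.14-fold to 1.54-fold in SCNT and by 1.22-fold to 1.66-fold in AI, and no member reached a log2 difference of 1. A total of 7 members fell in both: EIF1AX, EIF2S2, EIF3I, EIF4A1, EIF4G1, EIF5A and EEF1B2. The regulatory subunit gene EIF2B2 passed in AI alone, and EEF1D, EIF3B, EIF3K, EIF4EBP1 and, in the higher direction, EIF3CL passed in SCNT alone; the difference between SCNT and AI did not pass for any of these 6. Both comparisons use the same CJ animals, so their likeness is not independent evidence. The share of all named genes that fell in both was not counted, so the 7 are given as a list only.

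The share of members past the threshold was near that of all genes. In SCNT against CJ it was 25.5% of the members, against 26.7% of all named genes, and it was made up of 23.4% lower members against 15.1% lower genes and 2.13% higher members against 11.6% higher genes. In AI against CJ, 17% of the members passed, against 18.9% of all named genes. All of these members were lower, where 10.8% of the genes were lower and 8.1% higher. At an unadjusted p below 0.05, 15 members were lower and 3 higher in SCNT (38.3%, against 37.9% of all named genes), and 10 were lower and 3 higher in AI (27.7%, against 30.4%). The median over all 47 members was -0.07 in SCNT against 0.01 over all probes, and -0.01 in AI against 0.01 over all probes. The fits without AI animal 3 called 14 lower and 3 higher members in SCNT (36.2% of the members, against 33.6% of all named genes) and 10 lower and 1 higher in AI (23.4%, against 25.2%).

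**Figure D1:**
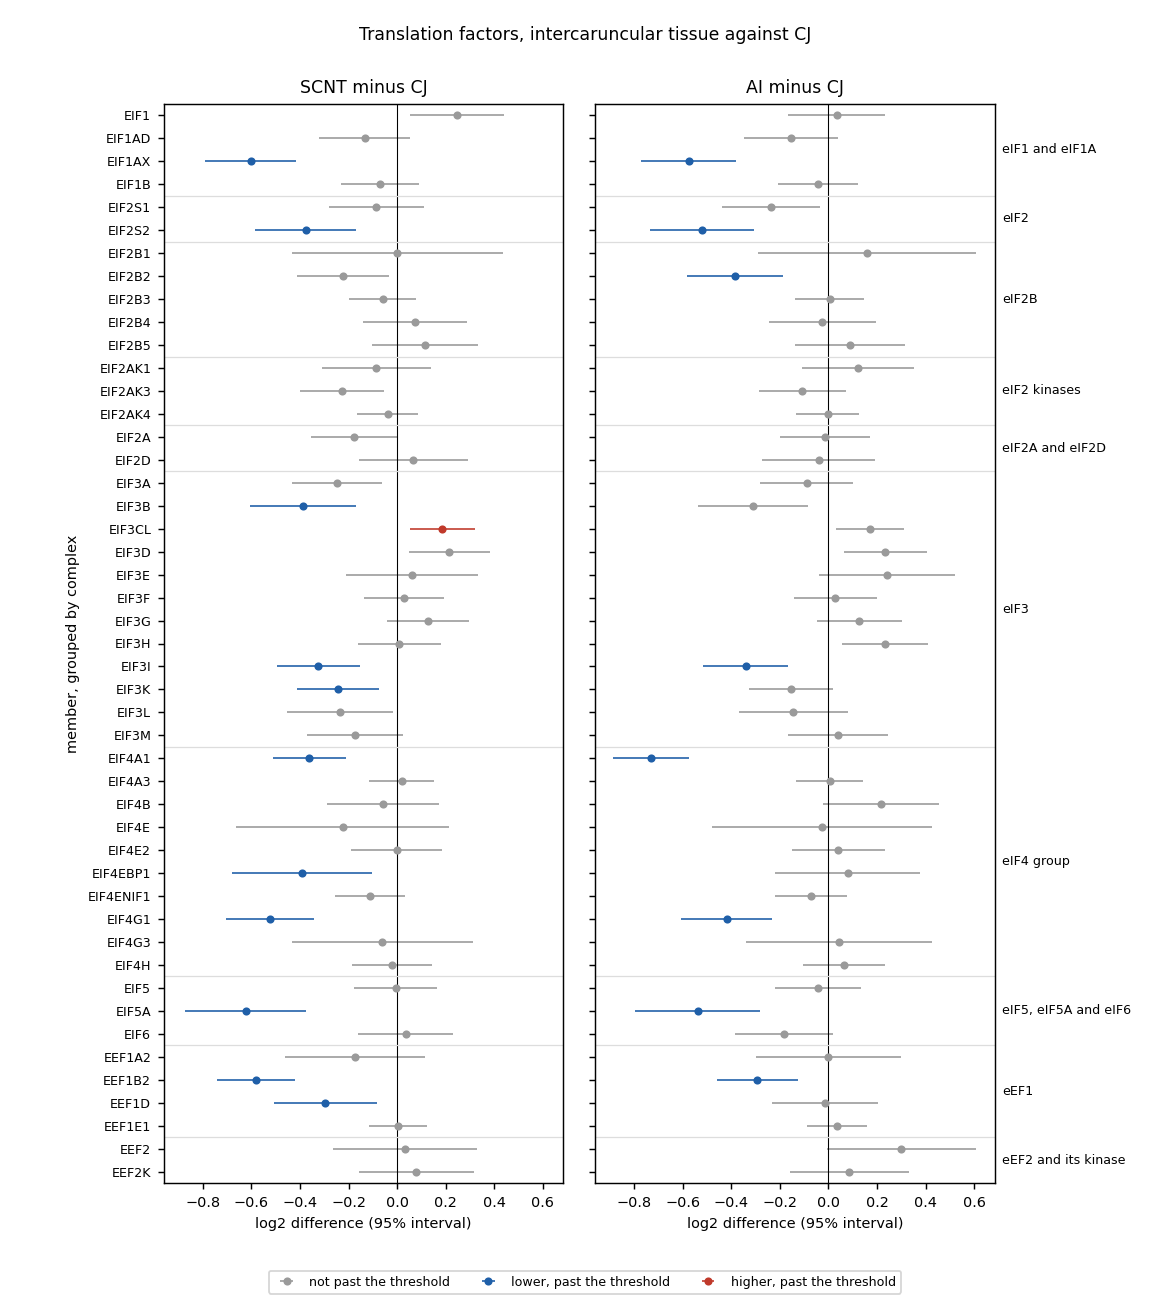
Log2 difference of each of the 47 translation factors from CJ in intercaruncular tissue, for SCNT (left) and AI (right), with 95% intervals of the fit and members grouped by complex from top to bottom. Blue members were lower and red members higher at an adjusted p below 0.05: 11 lower and 1 higher in SCNT, 8 lower and 0 higher in AI.

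EIF4A1, the helicase that unwinds the leader of messenger RNAs, fell furthest in AI. In the 4 AI animals, its mean log2 ratio to CJ was -0.76, -0.80, -0.66 and -0.74, and the 10 AI arrays ranged from -0.87 to -0.57. In SCNT animals 1 to 5 it was -0.16, -0.37, -0.27, -0.52 and -0.49. Every AI animal therefore lay lower than every SCNT animal, and AI animal 3, apart in its interferon response, was close to the other AI animals. Against CJ the log2 difference was -0.36 ± 0.07 in SCNT (SE, adjusted p = 0.000866, limma, below 0 on 8 of 10 arrays) and -0.73 ± 0.07 in AI (adjusted p = 1.39e-06, below 0 on 10 of 10 arrays). EIF4A3, the related helicase of the exon junction complex, gave 0.02 in SCNT and did not pass in either comparison, although paralogs may share signal on cDNA probes.

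The scaffold gene EIF4G1 fell in both groups. Its mean ratios were -0.67, -0.40, -0.23, -0.68 and -0.63 in the SCNT animals, and -0.36, -0.66, -0.19 and -0.60 in the AI animals. The 2 groups overlapped almost fully, and the highest AI value was that of animal 3. The log2 difference was -0.52 ± 0.09 in SCNT (adjusted p = 0.000151) and -0.42 ± 0.09 in AI (adjusted p = 0.00263; limma), with 10 of 10 arrays below 0 in each comparison.

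EIF4EBP1, the repressor that keeps EIF4E from EIF4G1 until mTORC1 phosphorylates it, gave -0.13, -0.33, -0.34, -0.50 and -0.66 in the SCNT animals, and -0.31, -0.25, 0.55 and 0.02 in the AI animals. The 5 SCNT animals were all below 0, and AI animal 3 was the highest of all. The difference from CJ was -0.39 ± 0.14 in SCNT (adjusted p = 0.0478, limma) and 0.08 ± 0.14 in AI (adjusted p = 0.881), where it was -0.18 without animal 3 (adjusted p = 0.327). The SCNT call rests on a thin margin, since it was lost in 12 of the 14 fits that left out 1 animal, with an adjusted p of 0.00163 to 0.203 over all alternatives. Without AI animal 3 the SCNT value was -0.39 ± 0.08 (adjusted p = 0.00163, limma). The call also held on the 10 SCNT arrays alone, but was lost under 4 of the 10 other settings. The cap-binding EIF4E varied more between animals than most members: it was -0.22 ± 0.21 in SCNT and -0.03 ± 0.22 in AI, and neither passed; without AI animal 3 the AI value was 0.33 ± 0.23. The other members of the eIF4 group (EIF4B, EIF4E2, EIF4ENIF1, EIF4G3 and EIF4H) did not pass.

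EIF1AX encodes eIF1A, which works with eIF1 in scanning for the start codon. It was -0.57, -0.73, -0.32, -0.49 and -0.90 in the SCNT animals, and -0.51, -0.64, -0.70 and -0.37 in the AI animals. All 20 arrays were below 0 and the 2 groups overlapped. The log2 difference was -0.60 ± 0.09 in SCNT (adjusted p = 5.42e-05) and -0.58 ± 0.09 in AI (adjusted p = 0.000228; limma). The size depended on the dye: with the AI sample in Cy5 the mean was -0.90 and in Cy3 it was -0.27, a gap that the dye term of the fit takes up. Its partner EIF1 went the other way in SCNT, at 0.25 ± 0.09 (adjusted p = 0.0622, above 0 on 9 of 10 arrays), and was at 0.03 in AI. Without AI animal 3, EIF1 passed in the higher direction in both, at 0.25 in SCNT (adjusted p = 0.00934) and 0.26 in AI (adjusted p = 0.0417).

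EIF2S2, the beta subunit of eIF2, was -0.31, -0.46, -0.10, -0.46 and -0.55 in the SCNT animals, and -0.41, -0.37, -0.70 and -0.49 in the AI animals. All 9 animals were below 0. The difference from CJ was -0.38 ± 0.10 in SCNT (adjusted p = 0.00839) and -0.52 ± 0.10 in AI (adjusted p = 0.00136; limma), where 9 and 10 of 10 arrays were below 0. The SCNT value did not pass without CJ animal 1 (-0.34, adjusted p = 0.0650) or with centred and scaled arrays (-0.27, adjusted p = 0.0762). The alpha subunit gene EIF2S1, whose phosphorylation by the eIF2 kinases slows initiation, was -0.09 ± 0.09 in SCNT and -0.24 ± 0.10 in AI and did not pass (adjusted p = 0.634 and 0.120). AI animal 3 was at -0.56 and the other AI animals at -0.15 to 0.08, and without it the AI value was -0.05.

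EIF2B2 belongs to eIF2B, the factor that exchanges GDP for GTP on eIF2. It was -0.27, -0.16, -0.13, -0.30 and -0.26 in the SCNT animals, and -0.32, -0.52, -0.46 and -0.19 in the AI animals. All animals were again below 0, with the AI values reaching lower. The difference was -0.22 ± 0.09 in SCNT (adjusted p = 0.0921) and -0.39 ± 0.09 in AI (adjusted p = 0.00712; limma), and the AI call was lost without CJ animal 5 (-0.29, adjusted p = 0.0775) and on the 10 AI arrays alone (-0.39, adjusted p = 0.0741). The other eIF2B subunits did not pass, EIF2B4 among them with 0.07 ± 0.10 in SCNT and -0.03 ± 0.11 in AI (0.07 without animal 3). EIF2B1 had opposite signs in the 2 dyes, with means of -0.42 with the SCNT sample in Cy5 and 0.42 in Cy3.

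With all animals, none of the 3 eIF2 kinases on the list passed in limma in either group. EIF2AK3, the PERK kinase of endoplasmic reticulum stress, came closest, at -0.23 ± 0.08 in SCNT (adjusted p = 0.0538) with all 5 SCNT animals below 0, and at -0.11 ± 0.09 in AI. Its SCNT value passed without AI animal 3 (adjusted p = 0.0350), CJ animal 4 (-0.33, adjusted p = 0.0124) or SCNT animal 5 (adjusted p = 0.0373), without the dye term (adjusted p = 0.0419), with arrays as independent (adjusted p = 0.0261) and with centred arrays (adjusted p = 0.0499). EIF2AK1, the heme-regulated kinase, was -0.09 ± 0.11 in SCNT and 0.12 ± 0.11 in AI. EIF2AK4, the amino acid sensor GCN2, was -0.04 ± 0.06 in SCNT, with an interval of -0.17 to 0.09. The interferon-induced EIF2AK2, left out of the members, rose by 0.93 ± 0.21 in SCNT (adjusted p = 0.00263) and by 0.65 ± 0.22 in AI (adjusted p = 0.0499, limma). The AI value includes AI animal 3, whose interferon-induced genes had a median of -0.27, and it is not given without that animal.

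Of the 12 measured eIF3 subunits, 3 fell and 1 rose in SCNT (33.3%, against 26.7% of all named genes), 1 fell in AI (8.33%, against 18.9%), and the subunit medians were -0.08 in SCNT and 0.03 in AI. EIF3I, a core subunit, was -0.32, -0.22, -0.39, -0.16 and -0.53 in the SCNT animals, and -0.20, -0.39, -0.50 and -0.16 in the AI animals. Both groups lay wholly below 0 and covered nearly the same range. The difference was -0.32 ± 0.08 in SCNT (adjusted p = 0.00583) and -0.34 ± 0.08 in AI (adjusted p = 0.00749; limma); the AI value was -0.25 without AI animal 3 (adjusted p = 0.0720), and the SCNT value -0.28 without CJ animal 4 (adjusted p = 0.0660).

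EIF3B, a scaffold of the eIF3 core, ranged from -0.58 to -0.20 over the SCNT animals and from -0.49 to -0.20 over the AI animals. It was -0.39 ± 0.10 in SCNT (adjusted p = 0.00960) and -0.31 ± 0.11 in AI (adjusted p = 0.0573; limma), so the 2 groups sat on either side of the threshold with like values. The SCNT call was lost without CJ animal 1 (adjusted p = 0.0662) or CJ animal 4 (adjusted p = 0.125), and the AI value passed without AI animal 3 (-0.38, adjusted p = 0.0377). EIF3K was -0.24 ± 0.08 in SCNT (adjusted p = 0.0335) and -0.15 ± 0.08 in AI (adjusted p = 0.281), where it passed without animal 3 (-0.28, adjusted p = 0.0266). Its SCNT call was lost in 8 of the 14 fits without 1 animal, with an adjusted p of 0.00790 to 0.187 over all alternatives.

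EIF3CL, the only member called higher, was 0.38, 0.31, -0.02, 0.10 and 0.17 in the SCNT animals, and 0.23, 0.14, 0.21 and 0.07 in the AI animals. The difference was 0.19 ± 0.06 in SCNT (adjusted p = 0.0426) and 0.17 ± 0.07 in AI (adjusted p = 0.0958; limma), and the SCNT call was lost in 11 of the 14 fits without 1 animal, with an adjusted p of 0.0149 to 0.164 over all alternatives. EIF3CL is a near copy of EIF3C, and the probe may read both. EIF3D and EIF3H were at 0.23 each in AI and did not pass (adjusted p = 0.0605 and 0.0730). For EIF3D, AI animal 3 was at 0.49 and the other AI animals at 0.17 or lower, and without animal 3 the AI values were 0.10 for EIF3D and 0.16 for EIF3H. In SCNT, EIF3A (-0.25 ± 0.09, adjusted p = 0.0514), EIF3L (-0.24 ± 0.10, adjusted p = 0.119) and EIF3D (0.21 ± 0.08, adjusted p = 0.0599) did not pass. These 3 passed without AI animal 3, with the same differences and adjusted p of 0.0163, 0.0118 and 0.0146. EIF3E was 0.06 ± 0.13 in SCNT and 0.24 ± 0.14 in AI (0.11 without animal 3) and did not pass. EIF3L was -0.14 in AI with all 4 animals and passed without AI animal 3, at -0.42 ± 0.09 (adjusted p = 0.00153), animal 3 being at 0.36 and the other AI animals at -0.22, -0.62 and -0.42.

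EIF5A, the hypusine-carrying factor that helps the ribosome over slow stretches, had the lowest difference of all members in SCNT. Its ratios were -0.59, -0.17, -0.73, -0.64 and -0.99 in the SCNT animals, and -0.73, -0.90, -0.10 and -0.72 in the AI animals. SCNT animal 2 and AI animal 3 were the highest of their groups. The difference was -0.62 ± 0.12 in SCNT (adjusted p = 0.000619) and -0.54 ± 0.12 in AI (adjusted p = 0.00441; limma), with 9 of 10 arrays below 0 in each, and it was -0.78 in AI without animal 3. EIF5, the GTPase activator of eIF2, was -0.01 ± 0.08 in SCNT and -0.04 ± 0.08 in AI. EIF6, which keeps the ribosomal subunits apart, was 0.03 ± 0.09 in SCNT and -0.18 ± 0.10 in AI. Neither passed.

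Of the elongation factors, EEF1B2 was -0.56, -0.66, -0.43, -0.64 and -0.62 in the SCNT animals, and -0.26, -0.37, -0.09 and -0.59 in the AI animals. This exchange factor of eEF1A was thus lower by a steady amount over the SCNT animals and by a varying one over the AI animals. The difference was -0.58 ± 0.08 in SCNT (adjusted p = 1.42e-05, below 0 on 10 of 10 arrays) and -0.29 ± 0.08 in AI (adjusted p = 0.0149, on 7 of 10 arrays; limma). The AI call was lost without AI animals 2 or 4 or CJ animals 1 or 4 (adjusted p = 0.0726, 0.119, 0.112 and 0.120), without the dye term (adjusted p = 0.0656) and on the 10 AI arrays alone (adjusted p = 0.0653). EEF1D, another exchange subunit, ranged from -0.73 to 0.05 over the SCNT animals and from -0.30 to 0.18 over the AI animals. It was -0.30 ± 0.10 in SCNT (adjusted p = 0.0413) and -0.02 ± 0.10 in AI (adjusted p = 0.981; -0.13 without AI animal 3), and the SCNT call was lost in 9 of the 14 fits without 1 animal (adjusted p of 0.0129 to 0.214 over all alternatives).

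EEF2, the translocase, was 0.35, -0.08, -0.21, -0.01 and 0.11 in the SCNT animals, and 0.15, -0.16, 1.00 and -0.25 in the AI animals. AI animal 3 alone lay far above 0. The difference was 0.03 ± 0.14 in SCNT and 0.30 ± 0.15 in AI (adjusted p = 0.216, limma), and in AI it was -0.09 without animal 3. EEF2K, the kinase that inhibits EEF2, was 0.08 ± 0.11 in SCNT and 0.09 ± 0.12 in AI (0.18 without animal 3). EEF1A2, the muscle and nerve form of eEF1A, had opposite signs in the 2 dyes, with means of -0.71 with the SCNT sample in Cy5 and 0.37 in Cy3, and did not pass. EEF1A1, the common form, and EIF4A2 and EIF4G2 were not analysed here.

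**Figure D2:**
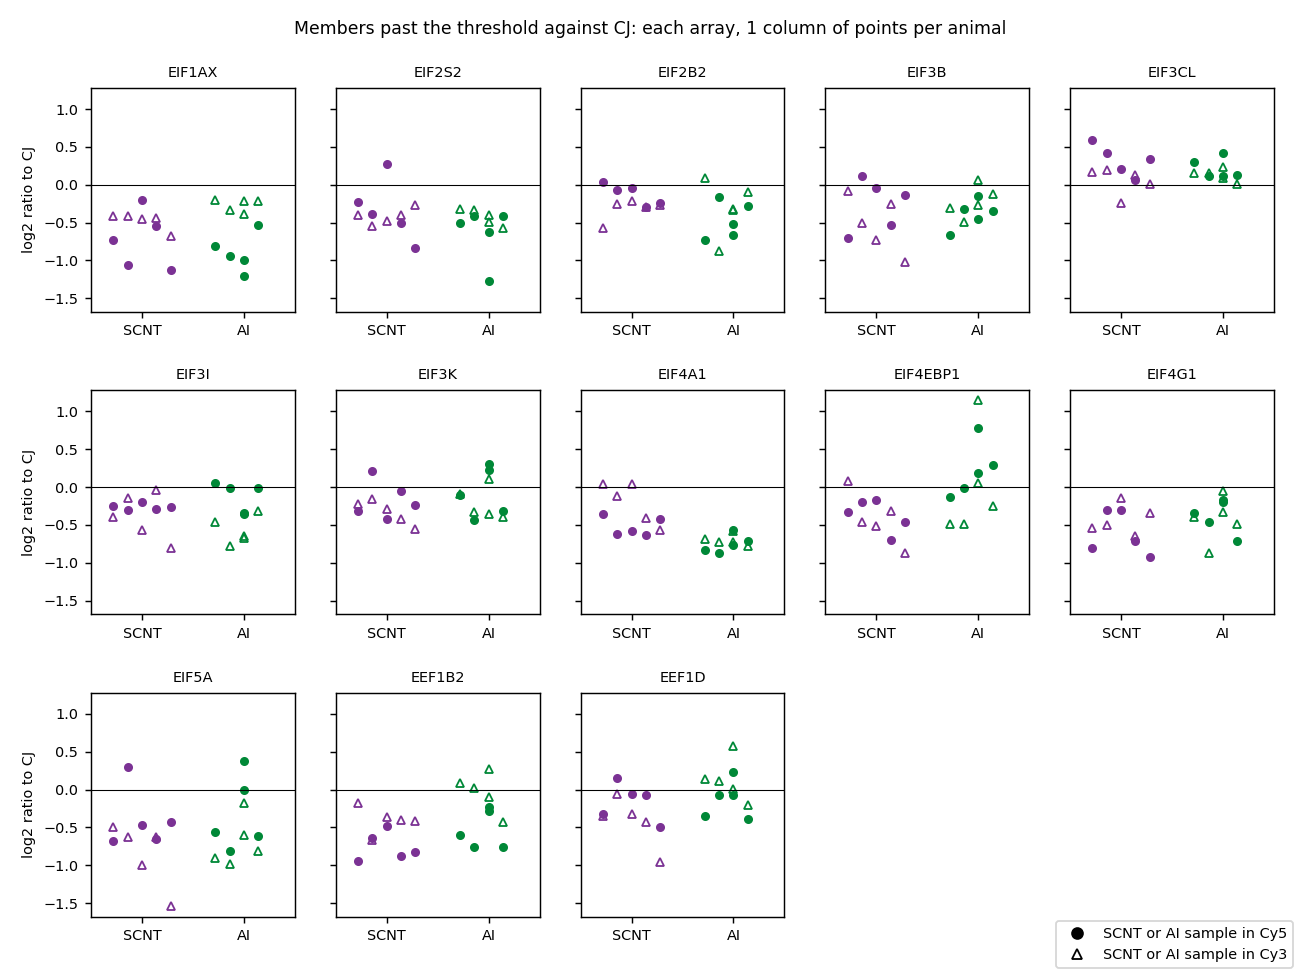
Log2 ratio to CJ on each intercaruncular array for the 13 members past the threshold in SCNT or AI, with SCNT (purple) left of AI (green) and 1 column of points per animal; filled circles have the SCNT or AI sample in Cy5 and open triangles in Cy3. EIF4A1 in AI stays between -0.87 and -0.57, while for EIF4EBP1 all 4 arrays of AI animal 3, the third green column, lie above 0, from 0.06 to 1.15.

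The calls differed in how far they rested on single animals. EEF1B2, EIF1AX, EIF4A1, EIF4G1 and EIF5A in SCNT, and EIF1AX, EIF2S2, EIF4A1, EIF4G1 and EIF5A in AI, kept their calls when any 1 of the 14 animals was left out and under the 10 other settings tried. The number of members past the threshold was 12 in SCNT and fell to 7 without CJ animal 1. The mean had the same sign in both dye orientations for all 12 members called in SCNT and all 8 called in AI, but its size could differ. For EEF1B2 in AI, the arrays with the AI sample in Cy5 ran from -0.76 to -0.23. With the AI sample in Cy3 they ran from -0.42 to 0.27, on both sides of 0, so this call came mostly from 1 dye orientation. The 35 members outside the threshold in SCNT lay between -0.25 and 0.25, and the 39 in AI between -0.31 and 0.30. A member's 95% interval had a median half-width of 0.189 in SCNT and 0.195 in AI, so that for 40 of 47 members in each comparison the interval stayed within 1.5-fold of CJ.

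Other genes of the same pathway moved in both directions. Of 35 measured signalling and regulator genes, 8 rose and 4 fell in SCNT (34.3%, against 26.7% of all named genes). In AI, 4 rose and 2 fell (17.1%, against 18.9%). EIF2AK2, given above, is counted among the 35 and among those that rose in both. DHPS, which starts the hypusine modification of EIF5A, rose by 0.60 ± 0.16 in SCNT (adjusted p = 0.00761) and by 0.52 ± 0.16 in AI (adjusted p = 0.0316), while EIF5A itself fell. RHEB, the activator of mTORC1, rose by 0.65 ± 0.14 in SCNT (adjusted p = 0.00214) and was 0.43 ± 0.15 in AI (adjusted p = 0.0520). PAIP1, a partner of the poly(A)-binding protein and the eIF4 group, was lower in both, at -0.34 ± 0.07 in SCNT (adjusted p = 0.00151) and -0.24 ± 0.08 in AI (adjusted p = 0.0348; limma). The stress-response genes DDIT3 and DDIT4 and the sestrin gene SESN2 rose in SCNT, by 0.58, 0.41 and 0.37. Their AI values are not given here. Between SCNT and AI animals in intercaruncular tissue, 0 of the 35 genes passed, so these rises are not shown to be particular to SCNT.

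Of 19 measured aminoacyl-tRNA synthetase genes, which load transfer RNAs, 5 fell and 1 rose in SCNT (31.6%, against 26.7% of all named genes), and 4 fell and 0 rose in AI (21.1%, against 18.9%). Their medians were -0.21 in SCNT and -0.13 in AI. EPRS1, for glutamate and proline, was -0.67 ± 0.09 in SCNT (adjusted p = 9.37e-06) and -0.67 ± 0.09 in AI (adjusted p = 3.40e-05). TARS1, for threonine, was -0.52 ± 0.09 in SCNT (adjusted p = 0.000141) and -0.54 ± 0.09 in AI (adjusted p = 0.000250; limma). WARS1, the interferon-induced tryptophan enzyme, was the one that rose, by 0.38 ± 0.13 in SCNT (adjusted p = 0.0340).

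Of 7 measured termination and rescue genes, 2 rose and 1 fell in SCNT (42.9%, against 26.7% of all named genes), and 1 rose and 1 fell in AI (28.6%, against 18.9%). The release factor gene GSPT1 was lower in both, at -0.43 ± 0.08 in SCNT (adjusted p = 0.000281) and -0.56 ± 0.08 in AI (adjusted p = 5.09e-05). UPF1, the helicase of nonsense-mediated decay, rose by 0.52 ± 0.10 in SCNT (adjusted p = 0.000445) and by 0.73 ± 0.10 in AI (adjusted p = 4.20e-05; limma). Of 5 measured mitochondrial translation factors, 0 passed in SCNT and TUFM fell in AI (20%, against 18.9% of all named genes), at -0.35 ± 0.12 (adjusted p = 0.0452).

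SCNT and AI were compared with each other in 2 ways, and 0 of the 47 members passed in either. In intercaruncular tissue, where the comparison runs through CJ, 31 of 8073 named genes passed (0.384%), and 5 members had an unadjusted p below 0.05, 4 lower and 1 higher in SCNT (10.6%, against 9.5% of all named genes). EIF4A1 had the smallest p, at 0.37 ± 0.09 with an interval of 0.17 to 0.56 (adjusted p = 0.130, limma). Its SCNT and AI animals did not overlap, which held for 1 of 47 members and for 1.85% of all named genes. EIF4EBP1 was -0.47 ± 0.18 (adjusted p = 0.479), EEF1B2 was -0.29 ± 0.10 (adjusted p = 0.398) and EEF1D was -0.28 ± 0.13 (adjusted p = 0.639). Without AI animal 3, EIF4A1 was 0.41 (adjusted p = 0.272), EIF4EBP1 -0.21, EEF1B2 -0.17 and EEF1D -0.17.

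The other members that fell in both CJ comparisons did not pass between SCNT and AI animals. The difference was -0.03 ± 0.12 for EIF1AX, 0.14 ± 0.13 for EIF2S2, -0.10 ± 0.11 for EIF4G1, -0.09 ± 0.16 for EIF5A and 0.02 ± 0.11 for EIF3I. Without AI animal 3 these were -0.10, 0.05, 0.02, 0.16 and -0.07, so the signs of EIF4G1, EIF5A and EIF3I turned. The interval for EIF1AX was -0.27 to 0.22, so differences of that size cannot be told from 0 here. EIF2S1 gave 0.15, EIF6 gave 0.22, EIF5 gave 0.04 and EIF2B4 gave 0.10, all above 0 without passing. Without AI animal 3, EIF2S1 was -0.03 and EIF2B4 was 0.003. EEF2, EIF4E, EIF3E, EIF2AK1, EIF2AK3, EIF2AK4 and EEF2K lay below 0, from -0.27 for EEF2 (0.12 without AI animal 3) to -0.01 for EEF2K (-0.10 without it), and EIF4E was -0.55 without that animal. Over all members the median was -0.04, and 42 of 47 intervals stayed within 1.5-fold.

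In the caruncular pools, where 0 of 8073 named genes passed (0%), 9 members had an unadjusted p below 0.05, 7 higher and 2 lower in SCNT (19.1%, against 14.2% of all named genes). EEF2K had the smallest p: its 2 pairs of pools gave -0.55 and -0.36, and the difference was -0.45 ± 0.09 (adjusted p = 0.184, limma). One of its 4 arrays was above 0, at 0.08, and the lowest was at -0.80. EIF3L gave 0.42 and 0.33 in the pairs, and all 4 arrays lay between 0.30 and 0.48. The difference was 0.38 ± 0.08 (adjusted p = 0.213).

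Several members that fell against CJ in intercaruncular tissue were above 0 on all 4 caruncular arrays of SCNT against AI. EEF1B2 gave 0.40 and 0.27 in the 2 pairs, EIF2S2 0.22 and 0.33, EIF1AX 0.26 and 0.26, and EIF4A1 0.35 and 0.15. Their adjusted p was 0.262, 0.305, 0.305 and 0.368. For EEF1B2 the sign was opposite to that in intercaruncular tissue, and for EIF4A1 it was the same. EIF3K (0.16 and 0.23) and EIF2B2 (0.19 and 0.06) were also above 0 on all 4 arrays. EIF4G1 gave -0.22 and -0.30 (adjusted p = 0.305, limma) and EIF3B -0.24 and -0.14, each with all 4 arrays below 0. EEF1D, EIF3I, EIF4EBP1 and EIF5A had arrays on both sides of 0. The difference between the areas was not tested here, because the pools and the animals come from separate fits.

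The other members named for the pools lay between -0.18 and 0.23. EIF2S1, EIF2AK1, EEF2 and EIF2AK3 were above 0 on all 4 arrays. EIF2S1 was at 0.21, EIF2AK1 at 0.23, EIF3E at 0.17, EEF2 at 0.13, EIF2AK3 at 0.11, EIF2B4 at 0.08, EIF5A and EIF2AK4 at 0.03 and EIF4E at 0.02, and below 0 lay EIF4EBP1 at -0.18, EIF5 at -0.08 and EIF6 at -0.05. The 2 pairs of pools had the same sign for 30 of 47 members, 20 of them above 0, and all 4 arrays had the same sign for 14. Such signs were not counted over all named genes, so these counts cannot be set against a background. Trophoblast markers were above 0 in all 7 measured genes in these pools, from 0.35 to 2.24 with a median of 1.30, and epithelial markers were below 0 in all 9, with a median of -0.34, though none passed. Their part in the members' values was not tested.

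**Figure D3:**
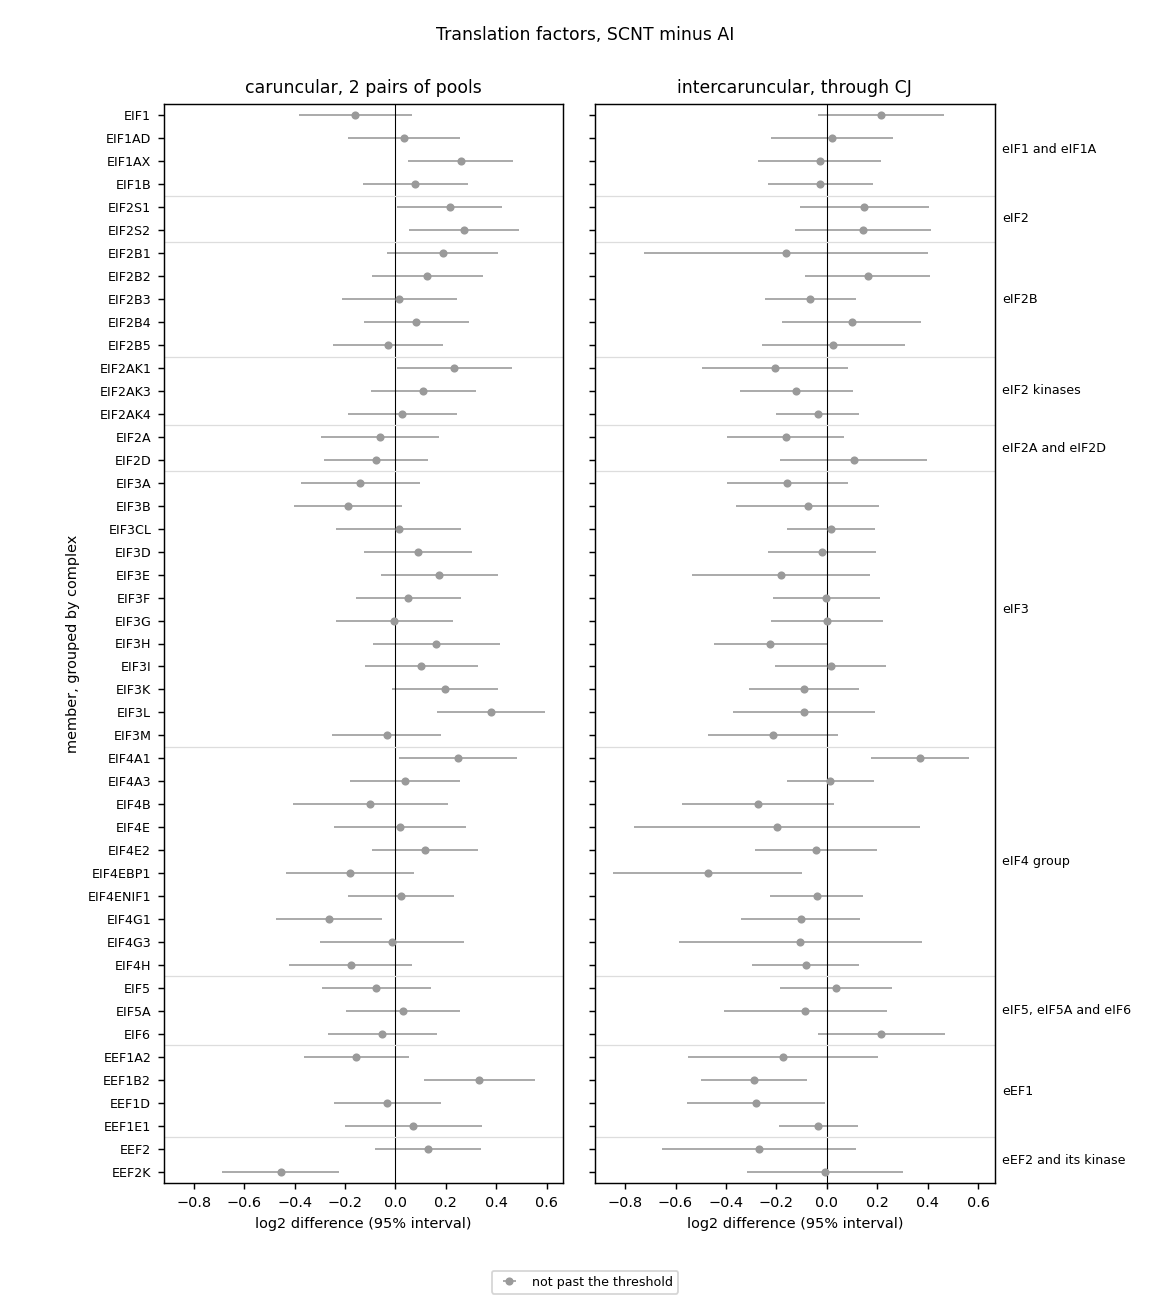
Log2 difference of SCNT from AI for the 47 translation factors, in caruncular pools (left) and in intercaruncular tissue through CJ (right), with 95% intervals of the fit. None passed an adjusted p below 0.05; the members farthest from 0 were EEF2K (-0.45) in the pools and EIF4EBP1 (-0.47) in intercaruncular tissue.

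IVF-ET and AI did not differ past the threshold for any of the 47 members in either area. Of all named genes, 2 passed in caruncular tissue (0.0248%) and 1 in intercaruncular tissue (0.0124%). At an unadjusted p below 0.05 there were 2 members in caruncular tissue, EIF4EBP1 higher and EIF4B lower (-0.13 ± 0.05), and 3 in intercaruncular tissue, 2 higher and 1 lower. These are 4.26% and 6.38% of the members, against 9.43% and 9.97% of all named genes. All 47 intervals in caruncular tissue, and 42 of 47 in intercaruncular tissue, stayed within 1.5-fold. Member medians were -0.03 in caruncular and -0.02 in intercaruncular tissue. As in the SCNT pools, all 7 measured trophoblast markers were above 0 in both areas, though none passed. They ran from 0.26 to 1.22 with a median of 0.46 in caruncular tissue. In intercaruncular tissue they ran from 0.12 to 0.45 with a median of 0.21. The part of these markers in the members' values was not tested.

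In caruncular tissue EIF4EBP1 had the smallest p. It was 0.27, 0.23, 0.20, 0.19 and 0.20 in the 5 IVF-ET animals, each averaged over the arrays that carry it, and 9 of 10 arrays were above 0. The values of the 5 animals lay close together, and the difference was 0.22 ± 0.06 (adjusted p = 0.361, limma). In intercaruncular tissue the same gene was 0.21, -0.10, 0.09, 0.10 and -0.23, with a difference of 0.01 ± 0.09. The difference between the areas was 0.20 ± 0.10 (adjusted p = 0.637).

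In intercaruncular tissue EIF3B had the smallest p, at 0.29, -0.12, 0.30, 0.89 and 0.40 in the 5 IVF-ET animals. The difference was 0.35 ± 0.13 (adjusted p = 0.488, limma), with 8 of 10 arrays above 0 and IVF-ET animal 4 highest. EIF2S2 was -0.03, -0.05, 0.71, 0.61 and 0.19, so animals 3 and 4 carried its difference of 0.29 ± 0.12 (adjusted p = 0.511). EIF2B1 was -0.32 ± 0.14 (adjusted p = 0.511). In caruncular tissue EIF3B was -0.02 and EIF2S2 was -0.08.

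The area difference, caruncular minus intercaruncular, passed for 0 of 47 members, against 1 of 8073 named genes (0.0124%), and 3 members had an unadjusted p below 0.05 (6.38%, against 8.42% of all named genes). These were EIF3B at -0.38 ± 0.16 (adjusted p = 0.610), EIF2S2 at -0.36 ± 0.15 (adjusted p = 0.605) and EIF3A at -0.26 ± 0.12 (adjusted p = 0.634; limma). The area intervals were wider, with a median half-width of 0.258, and 37 of 47 stayed within 1.5-fold. By the labels, the same 5 IVF-ET animals and 3 of the AI animals were in both areas. This fit took the areas of an animal as separate, and a fit that linked them also gave 0 members past the threshold.

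EIF3B, which fell in SCNT against CJ, was 0.35 in intercaruncular tissue here. Of the 7 members that fell in both comparisons with CJ, EIF2S2 was -0.08 in caruncular and 0.29 in intercaruncular tissue. The rest of the 7 lay between -0.14 and 0.14. EIF4A1 was -0.12 in caruncular and 0.12 in intercaruncular tissue, EIF1AX -0.09 and 0.01, EIF5A -0.09 and 0.14, EEF1B2 0.10 and -0.04, EIF4G1 -0.01 and -0.14, and EIF3I 0.14 and -0.07. EIF4G1 spread widely over the IVF-ET animals of intercaruncular tissue, from -0.78 to 0.17. Of the other factors, EEF2 was 0.18 and -0.09, EEF2K 0.05 and -0.24, EIF4E -0.07 and -0.02, EIF2S1 -0.07 and -0.04, EIF5 -0.08 and -0.05, EIF6 0.03 and 0.04, EIF3E -0.10 and 0.21, and EIF2B4 -0.03 and -0.10, again with the caruncular value first. The kinases EIF2AK1, EIF2AK3 and EIF2AK4 were at -0.05, 0.04 and -0.05 in caruncular tissue and at -0.18, -0.05 and -0.01 in intercaruncular tissue.

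**Figure D4:**
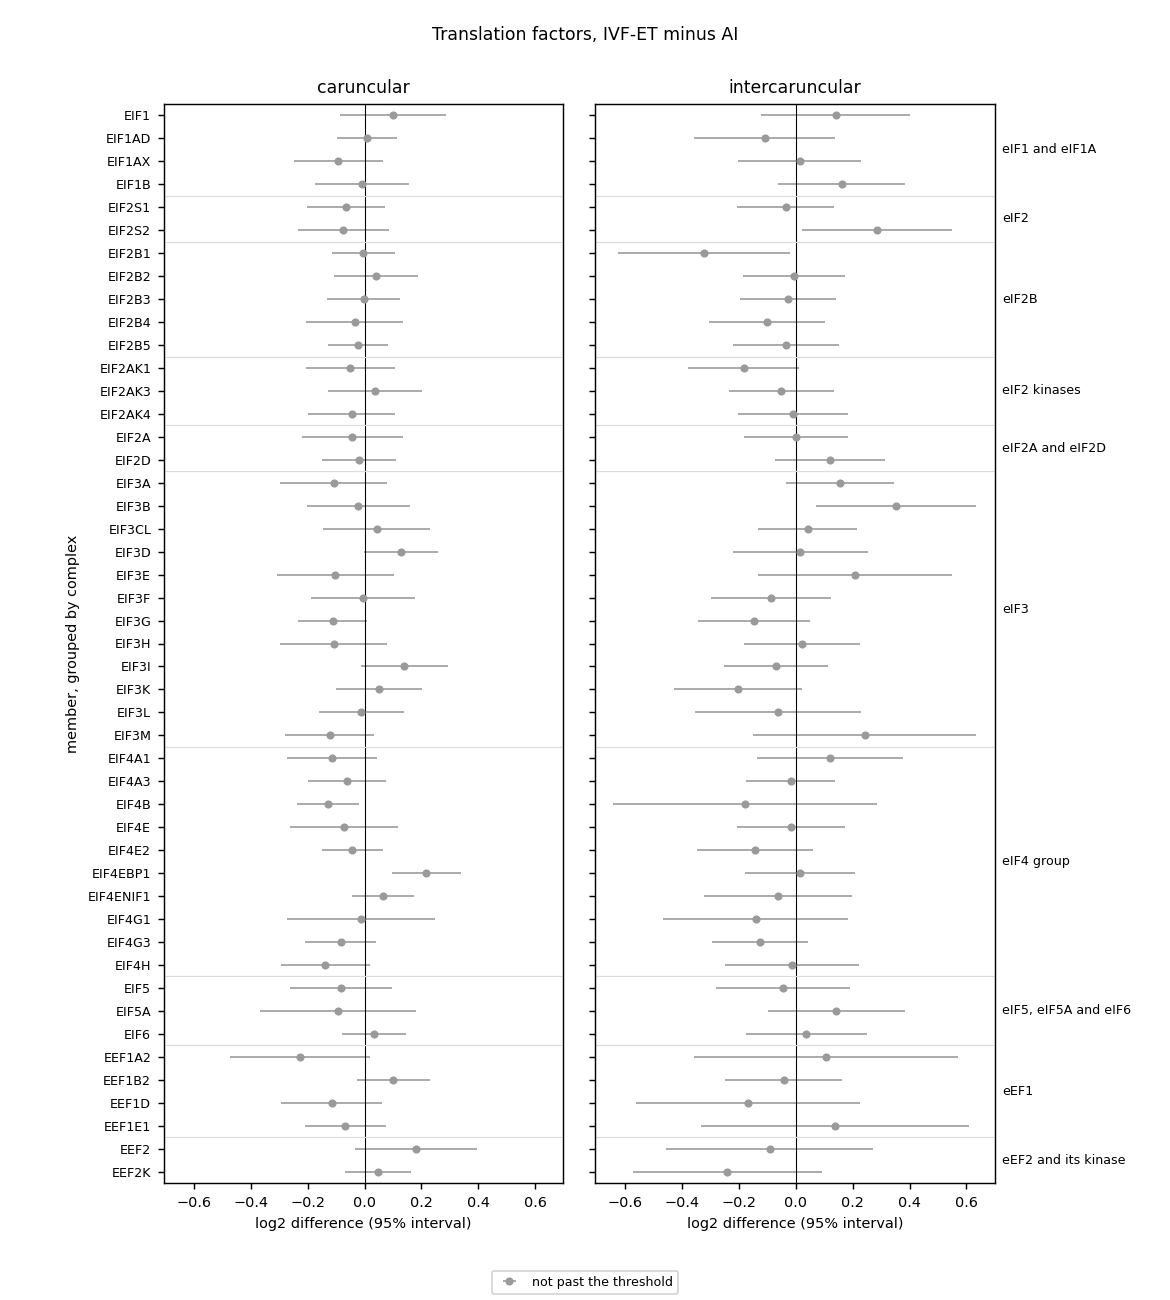
Log2 difference of IVF-ET from AI for the 47 translation factors in caruncular (left) and intercaruncular tissue (right), with 95% intervals of the fit. No member passed an adjusted p below 0.05, and the points lie between -0.23 and 0.22 in caruncular tissue and between -0.32 and 0.35 in intercaruncular tissue.

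Across all 44 arrays, which share animals and dyes, the members did not follow one course. EIF1AX correlated most with the median of the 47 members, at Pearson's r of 0.66, followed by EEF1B2 at 0.61 and EIF3M at 0.56, while EIF3D ran against it at -0.42. EIF3I and EIF3K, both past the threshold in SCNT, were at 0.07 and 0.02. Of 8026 named genes outside the list, AZIN1 (0.786), PSMA1 (0.782), CCT5 (0.728), ATG3 (0.727) and ATP6V1G1 (0.727) had the ratios most like the member median. These correlations are a description.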

How the data were processed

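Each spot of each array has 1 deposited log2 ratio between the dyes, computed by the authors. How they corrected background and normalized is not given in the sources used. Per the labels' protocols, total RNA was extracted with Trizol, reverse transcribed with oligo-dT primers and labelled with Cy3 or Cy5. All 331 values below -4 matched log2 of a ratio with 4 decimals. Medians per array ran from -0.0164 to 0.0124, so the ratios were used as deposited. The SD of an array's log2 ratios was 0.221 to 0.62, and the number of arrays limits the precision.

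Each of 13824 probes fills 2 of the 27648 spots, and their mean was used. The supplied annotation gives 8645 probes 1 symbol, 105 several and 5074 none; 8620 symbols matched the supplied RefSeq gene table. Where a gene has several probes, that with the fewest missing values, then the first, stands for it. A second probe of 7 members changed the call for 0 of them and the sign for 4 or 5, depending on the comparison. None of these 7 passed the threshold in any comparison, so no member past the threshold was checked with a second probe. The 3 probes with an EIF or EEF symbol among several were left out.

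Each probe was fitted with limma 3.58.1 (R 4.3.3) with a term for the dye, and arrays with a common animal were given 1 estimated correlation (IVF-ET against AI 0.13 caruncular, 0 intercaruncular and 0.01 jointly; CJ arrays 0.12). The animal was the replicate, and nothing in the labels separates biological from technical spread further. The labels put AI animal 3 on 4 arrays, 2 of which pair it with 1 CJ animal in opposite dyes. Each pair of pools was averaged over its 2 arrays, and the 2 values were tested against 0. Benjamini-Hochberg adjustment ran over every probe measured on 80% or more of a fit's arrays. An animal's value is the mean over its arrays. The fit was tested on simulated data.

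The members and gene lists were chosen with earlier results of these data known. Named in each comparison were the members past the threshold and a list of 21 factors, of which 18 were measured; any other member named was singled out after its values were seen. Alternatives left out each animal, the dye term, the correlation or either spot, weighted, centred or scaled the arrays, used all probes of a gene, and linked the areas of an animal. Sequences and genome positions were not used here.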

Additional observations from a re-analysis of the deposited data

Results flagged for a closer look

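In 5 of 96 checks (24 members in 4 groups of 4 or 5 animals), 1 animal lay farther from the others than Dixon's 95% limit allows. Chance flags about 1 in 20 groups. EEF1D was -0.55 in IVF-ET animal 1 of the caruncular loop, with the other IVF-ET animals at -0.11 to 0.04. EEF2K was -0.99 in IVF-ET animal 3 of the intercaruncular loop, with the others at -0.10 to -0.003. In SCNT animal 2, set against CJ, EIF2AK3 was -0.41 (others -0.22 to -0.15) and EIF6 was 0.34 (others -0.08 to -0.01). EIF2B4 was -0.20 in AI animal 3, with the other AI animals at 0.05 to 0.09 against CJ.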

How the results depend on the processing

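The count of members past the threshold stayed at 0 under every alternative run for IVF-ET against AI (caruncular, intercaruncular and their difference) and for SCNT against AI in intercaruncular tissue and in the pools. The paired fit, a block that links the 2 areas of an animal, also gave 0. Leaving out 1 animal at a time, the count was 7 to 17 in SCNT against CJ (12 with all animals) and 7 to 11 in AI against CJ (8 with all animals). The lowest count in SCNT, 7, came without CJ animal 1. Under the other settings it was 8 to 16 in SCNT and 7 to 12 in AI. No called member changed sign. Of the members outside the threshold, 6 in SCNT against CJ and 7 in AI against CJ passed under at least 1 alternative, and 0 did in the other comparisons. Without 1 pair of pools the member median was 0.05 in each remaining pair, with no test. The number of arrays limits what can be seen: the median 95% half-width was 0.156 and 0.216 for IVF-ET against AI in caruncular and intercaruncular tissue, 0.218 for the pools and 0.245 for SCNT against AI through CJ.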
